A study of Mus musculus with 6 samples.

Results

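The genes described here are those of the IL-33, IL-1 and IL-13 receptors with IL-33 and IL-18, 8 of the 30281 gene symbols in the deposited tables. The set holds *Il1rl1*, *Il33*, *Il1rap*, *Il1r1*, *Il13ra1*, *Il13ra2*, *Il4ra* and *Il18*. The list was set by name, and *Il1rl1* and *Il13ra2* were selected on their measured changes in these data, so their changes are given as a description and without a test. The other 6 genes complete the receptor complexes and ligands.

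RNA-Seq was performed on 6 mouse libraries, with 1 library per condition. The MEF (mouse embryo fibroblast) libraries came from *Tsc2*+/+ p53-/- and *Tsc2*-/- p53-/- cells, both labelled as untreated, so the wild-type MEFs also lack p53 by their label. The other 4 libraries came from MKOC and TJ cells, a pair of kidney epithelial lines that carry the label Tsc2-null. By their label, TJ cells derive from a secondary tumor that arose in C57BL6 mice. Each kidney line was given diluent or 100 nM rapamycin, an inhibitor of mTORC1, for 18 h in DMEM without serum and with 0.1% BSA, and the diluent libraries are called untreated here. The labels name no replicate cultures, so the p-values below measure only the spread between these libraries.

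IL-33 is an alarmin of the IL-1 family that binds ST2, the product of *Il1rl1*, and recruits the co-receptor IL-1RAcP (*Il1rap*), which IL-1 receptor 1 (*Il1r1*) also uses. Both complexes signal through MyD88 to NF-kB. *Il1rl1* encodes a membrane receptor and, by an earlier 3' end, a secreted form of ST2 that binds IL-33 without signalling. IL-13 signals through IL-13Ra1 and IL-4Ra to STAT6, whereas IL-13Ra2 binds IL-13 tightly, has a short cytoplasmic tail and is known as a decoy receptor. IL-18 is another IL-1 family cytokine, processed by caspase-1.

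*Il1rl1* lies on the plus strand of chromosome 1 (GRCm38, 40429570 to 40465415), in a cluster of interleukin receptor genes, and has an annotated start at each of 2 promoters. *Il13ra2* lies on the minus strand of chromosome X (147383476 to 147429192). The 250 bases before the start sites are shown for these genes because their changes put them on the list, and because the *Il1rl1* transcripts begin at different starts. The sequences are from RefSeq (GRCm38.p6), 5′ to 3′ on the gene's strand. The distal *Il1rl1* window is chr1:40429320-40429569, the proximal window is chr1:40439379-40439628 and the *Il13ra2* window is chrX:147429193-147429442. Capitals mark matches on either strand to the motifs searched.
Il1rl1 distal: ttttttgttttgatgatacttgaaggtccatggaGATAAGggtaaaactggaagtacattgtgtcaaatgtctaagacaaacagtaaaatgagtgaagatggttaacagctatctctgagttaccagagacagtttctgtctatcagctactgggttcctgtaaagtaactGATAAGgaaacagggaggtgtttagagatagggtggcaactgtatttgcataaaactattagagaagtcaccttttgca
Il1rl1 proximal: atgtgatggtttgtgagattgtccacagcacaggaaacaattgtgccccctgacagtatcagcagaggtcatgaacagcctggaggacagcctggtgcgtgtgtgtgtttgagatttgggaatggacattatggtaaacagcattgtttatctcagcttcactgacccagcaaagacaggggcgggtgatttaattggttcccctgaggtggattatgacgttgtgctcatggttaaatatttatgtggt
Il13ra2: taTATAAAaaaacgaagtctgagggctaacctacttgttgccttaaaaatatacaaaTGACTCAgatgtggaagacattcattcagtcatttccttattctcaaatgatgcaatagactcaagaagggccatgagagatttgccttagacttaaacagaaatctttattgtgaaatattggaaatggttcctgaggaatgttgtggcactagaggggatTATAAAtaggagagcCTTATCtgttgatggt
The motifs searched were those of AP-1, CRE, TATA and GATA, and no matches in these windows overlapped. The distal *Il1rl1* window held the GATA letters GATAAG, with its first base at -216 and at -79 from the start site, which 6.55% of 32851 promoters hold. The proximal *Il1rl1* window held none of the 4 motifs. The *Il13ra2* window held 1 match to the AP-1 motif TGANTCA, at -193, which 6.75% of promoters hold. It held the TATA letters TATAAA at -248 and at -31, which 12.4% of promoters hold. It also held the GATA letters on the other strand, at -16. The CRE letters TGACGTCA, found in 1.55% of promoters, were in none of the 3 windows.

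Library depth was 22887020 to 37505004 estimated counts. *Tsc2* RNA was measured in every library, at 22.6 TPM (abundance per length, scaled to the same total in each library) in the *Tsc2*+/+ MEF library, 10.5 TPM in the library labelled *Tsc2*-/- and 19.1 to 49.1 TPM in the kidney libraries labelled Tsc2-null, so RNA does not separate the genotypes by presence and the groups below are named by label. Of the 8 fibroblast markers, 7 reached 1 TPM in the *Tsc2*+/+ MEF library, 8 in the *Tsc2*-/- library and 2 to 3 in the kidney libraries. *Col1a1* was at 274 and 474 TPM in the MEFs (*Tsc2*+/+ first) and under 1 TPM in the kidney libraries, and *Thy1* was at 0 counts in the *Tsc2*+/+ library and at 7.36 TPM in the other. *Vim* and *Dcn* were also found in the kidney libraries, with *Vim* at 3522 and 1118 TPM in the MEFs and 3609 to 7523 TPM in the kidney libraries, and *Dcn* at 7.08 and 422 TPM in the MEFs and 6.73 to 50.3 TPM in the kidney libraries. Of the 6 epithelial markers, 4 reached 1 TPM in each kidney library, among them *Krt8* (539 to 990 TPM) and *Cdh1* (101 to 128 TPM). *Krt19*, at 0.39 to 0.80 TPM, and *Epcam*, with at most 1 count, did not. The kidney libraries also carried the tubule genes *Pax8* and *Cdh16*, while *Lhx1* had 0 counts. RNA from whole cultures cannot tell fewer cells of a type from less RNA per cell.

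*Il1rl1* was by far highest in *Tsc2*+/+ MEFs. Its summed level was 375 TPM (31291 estimated counts) in *Tsc2*+/+ MEFs against 4.69 TPM in *Tsc2*-/- MEFs, 2.88 TPM in untreated MKOC cells, 16.2 TPM in rapamycin-treated MKOC cells, 2.10 TPM in untreated TJ cells and 7.27 TPM in rapamycin-treated TJ cells. The *Tsc2*+/+ MEF library stood 23.2-fold above the next library and ranked *Il1rl1* at place 262 among all symbols there. Among the other 5 libraries the order was MKOC with rapamycin, TJ with rapamycin, *Tsc2*-/- MEFs, untreated MKOC and untreated TJ, and only the last neighbours had overlapping 95% Wilson intervals of the count (2.48 to 3.36 and 1.75 to 2.54 TPM). The interval of the *Tsc2*-/- MEFs was scaled from their summed count, although 59.1% of their TPM came from 8.32 counts on 1 short, incomplete transcript model, Il1rl1-204. It is thus too narrow, and whether it overlaps those of its neighbours cannot be told. The place of the *Tsc2*-/- MEFs in the order rested on this model. Without Il1rl1-204, an alternative chosen after seeing the data, the *Tsc2*-/- MEFs were lowest, at 1.91 TPM (1.57 to 2.34). Untreated TJ cells were then at 2.10 TPM (1.75 to 2.54) and untreated MKOC cells at 2.47 TPM (2.12 to 2.87), and these 3 intervals overlapped. These intervals, and all others below, cover counting error only and not the assignment of reads to transcripts by Kallisto or the spread between cultures.

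*Il13ra2* was low in every library. It was at 0.449 TPM (21 counts) in *Tsc2*+/+ MEFs, 0.620 TPM (15 counts) in *Tsc2*-/- MEFs, 0.0735 TPM (3 counts) in untreated MKOC cells, 1.01 TPM (33 counts) in MKOC cells with rapamycin, 0.164 TPM (6 counts) in untreated TJ cells and 2.61 TPM (89 counts) in TJ cells with rapamycin. Only the rapamycin-treated kidney libraries reached 1 TPM, and both stood above the untreated library of their line.

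The subunits that the receptors share were the most even genes of the set. *Il1rap*, the co-receptor, was at 6.22 TPM in *Tsc2*+/+ MEFs, 8.58 TPM in *Tsc2*-/- MEFs, 7.76 and 8.98 TPM in MKOC cells (untreated, then rapamycin) and 5.41 and 5.87 TPM in TJ cells. *Il13ra1*, the signalling IL-13 receptor chain, was at 13.8, 11.2, 12.97, 11.3, 18.1 and 19.0 TPM in the same order of libraries. *Il4ra*, its partner chain, was at 1.93, 3.83, 4.80, 7.63, 3.70 and 6.58 TPM, lowest in *Tsc2*+/+ MEFs and highest in the rapamycin-treated kidney libraries. Every library thus held RNA of *Il1rap*, *Il13ra1* and *Il4ra* above 1 TPM.

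*Il1r1*, the signalling IL-1 receptor, separated MEFs from kidney cells. It was at 12.7 and 7.24 TPM in *Tsc2*+/+ and *Tsc2*-/- MEFs, 0.278 and 0.303 TPM in MKOC cells (untreated, then rapamycin) and 1.02 and 1.44 TPM in TJ cells. The ligand *Il33* was near the limit of detection, at 0.0135 TPM (1 count) in *Tsc2*+/+ MEFs, 1.31 TPM (48 counts) in *Tsc2*-/- MEFs, 0.127 and 0.353 TPM in MKOC cells and 0.716 and 0.918 TPM in TJ cells. The library with the most receptor RNA thus had the fewest *Il33* counts. *Il18* was at 13.3 and 4.46 TPM in *Tsc2*+/+ and *Tsc2*-/- MEFs, 0.480 TPM (5 counts) and 2.96 TPM (24 counts) in MKOC cells and 2.88 and 3.73 TPM in TJ cells, so that untreated MKOC cells had the lowest level.

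**Figure D1:**
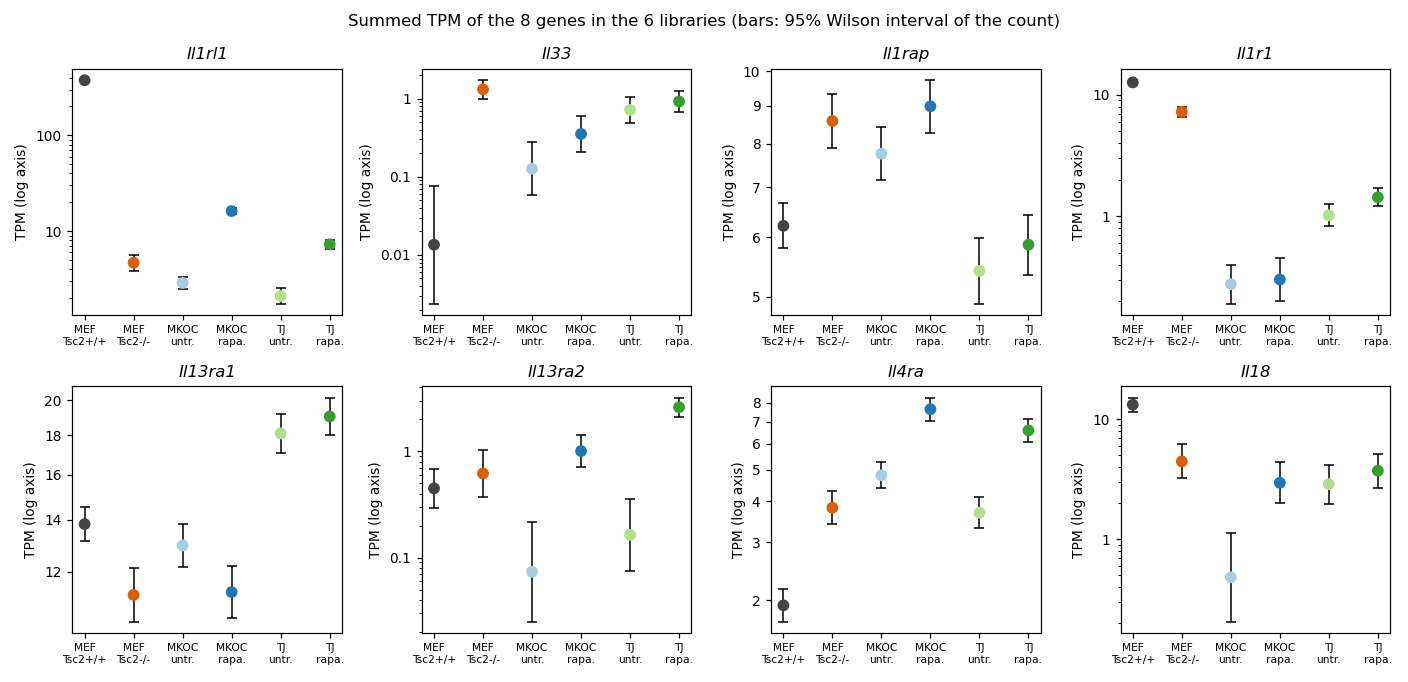
Summed TPM (log axis, a different range in each panel) of the 8 genes in the 6 libraries, 1 point per library with the 95% Wilson interval of its count. Il1rl1 is at 375 TPM in Tsc2+/+ MEFs against 2.10 to 16.2 TPM elsewhere, and Il13ra2 is above 1 TPM only in the rapamycin-treated kidney libraries. The Il1rl1 interval in Tsc2-/- MEFs is too narrow, because 59.1% of that TPM came from 8.32 counts.

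The *Il1rl1* RNA was divided over 5 annotated transcripts that encode a long or a short protein. Il1rl1-201 and Il1rl1-202 (ENSMUST00000053043 and ENSMUST00000097772) end at the far 3' exon and have 567 coding codons, the length of the membrane form. Il1rl1-203 (ENSMUST00000173514) and Il1rl1-205 (ENSMUST00000174335) end earlier and have 337 codons, the short form. Il1rl1-204 (ENSMUST00000173881) is an incomplete model of 375 bases. Il1rl1-205 begins at the distal start and Il1rl1-202 begins 2 bases from the proximal start, with Il1rl1-203 a further stretch downstream at 147 bases from it. Il1rl1-201 is contained base for base in Il1rl1-202, so their counts were added, and Il1rl1-205 has only 61 bases in no other *Il1rl1* transcript.

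**Figure D2:**
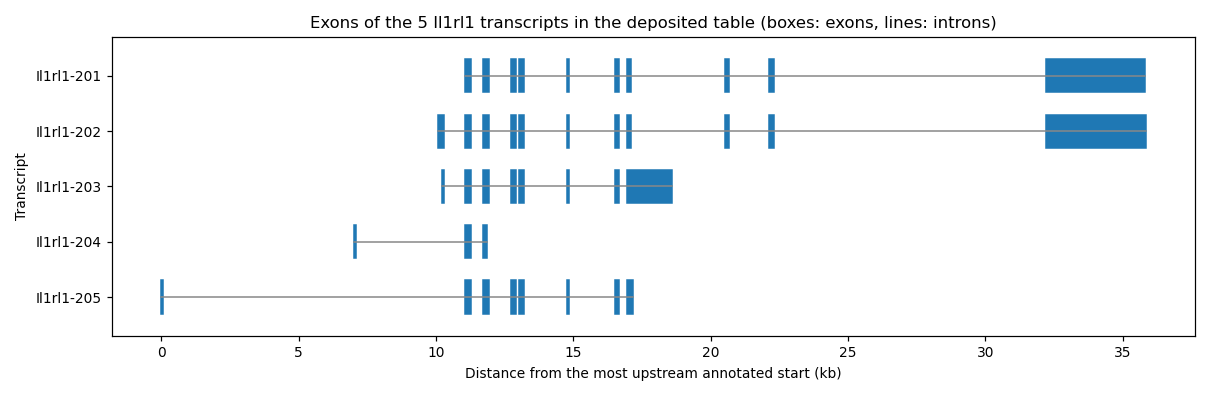
Exons (boxes) and introns (lines) of the 5 Il1rl1 transcripts, in kb from the distal start. Il1rl1-205 starts at the distal start, and Il1rl1-201 and Il1rl1-202 run on to the far 3' exon that Il1rl1-203 and Il1rl1-205 lack.

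In *Tsc2*+/+ MEFs the short form took most of the reads. Il1rl1-203 had 24524 counts there (315 TPM) and Il1rl1-202 had 6657 (41.2 TPM), while Il1rl1-201 had 0 and Il1rl1-205 had 0.112 counts. The short form was 78.7% of the counts of both forms in *Tsc2*+/+ MEFs (95% Wilson interval 78.2 to 79.1%) and 50.0% in *Tsc2*-/- MEFs (39.7 to 59.3%), where 48.4 counts went to each form. In MKOC cells it was 49.7% (42.1 to 57.3%) without and 69.1% (65.8 to 72.4%) with rapamycin, intervals that did not overlap. In TJ cells it was 61.0% (51.5 to 69.3%) without and 60.7% (55.2 to 66.1%) with rapamycin, intervals that did overlap. The transcripts of the long form are longer, so equal counts are not equal levels. The TPM ratio of the short over the long form was 7.63 in *Tsc2*+/+ and 1.98 in *Tsc2*-/- MEFs. It was 2.025 and 4.63 in MKOC cells (untreated, then rapamycin) and 3.25 and 3.83 in TJ cells. The transcript from the distal start, Il1rl1-205, had at most 2.85 counts in 5 libraries and 26.4 counts (1.41 TPM) in TJ cells with rapamycin. Kallisto assigned 8.52% of the *Il1rl1* counts to Il1rl1-205 in that library and at most 2.56% in the others. Since Il1rl1-205 has only 61 bases of its own, use of the distal start cannot be read from this split.

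**Figure D3:**
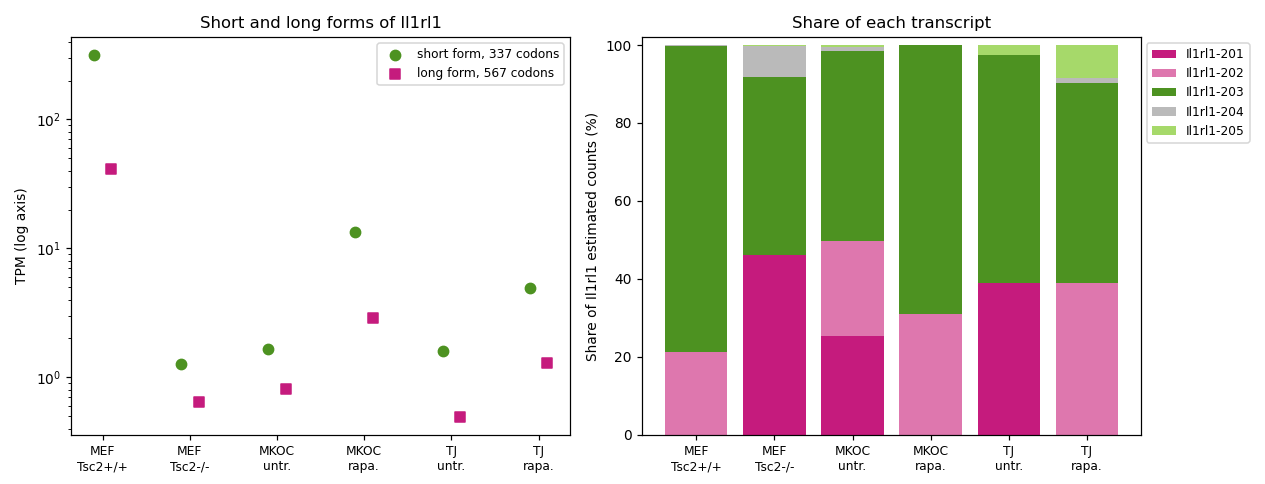
Left, TPM (log axis) of the short form (337 codons, circles) and long form (567 codons, squares) of Il1rl1 per library. Right, the share of Il1rl1 estimated counts assigned to each transcript (%), in which Il1rl1-203 is the largest in Tsc2+/+ MEFs and in all 4 kidney libraries, and the split between Il1rl1-201 and Il1rl1-202 cannot be read because one contains the other.

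The MEF comparison asked how the RNA of cells labelled *Tsc2*-/- differed from that of *Tsc2*+/+ cells. *Il1rl1* had a log2 fold change of -6.05 on the log2(TPM + 1) scale, and its TPM was 80.1-fold lower in *Tsc2*-/- MEFs (counting interval 66.2 to 98.1). The long form was 64.2-fold lower (48.4 to 87.1) and the short form 247-fold lower (186 to 335). The 2.77 TPM of Il1rl1-204 in *Tsc2*-/- MEFs came from 8.32 counts on that short model and made up 59.1% of the summed *Il1rl1* TPM there. The interval of the 80.1-fold ratio, scaled from the summed counts, is therefore too narrow. Without this transcript the log2 fold change of the sum was -6.94. As a single transcript Il1rl1-203 had a log2 fold change of -7.13, and 0.494% of 32357 transcripts were at least 8-fold lower. The gene was put on the list for its changes, and nothing is read from these values.

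Of the other receptor genes, *Il1r1* and *Il13ra1* were lower and *Il4ra* and *Il1rap* higher in *Tsc2*-/- MEFs, all within 2-fold. The *Il1r1* TPM ratio was 0.572 (0.514 to 0.634), that of *Il13ra1* was 0.810 (0.736 to 0.890), that of *Il4ra* was 1.98 (1.68 to 2.34) and that of *Il1rap* was 1.38 (1.24 to 1.54). The median gene had a log2 fold change of 0.45, so that *Il1rap* at 0.41 lay near the middle of all genes. Among the ligands, *Il33* was higher with 48 counts against 1 (TPM ratio 97.1, interval 16.6 to 3915) and a log2(TPM + 1) change of 1.19, and *Il18* was lower (log2 change -1.39, TPM ratio 0.336, interval 0.229 to 0.480). *Il13ra2* was under 1 TPM in both libraries and its ratio of 1.38 had an interval of 0.662 to 2.81.

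Of the 8 genes, 7 had at least 1 TPM in at least 1 MEF library, and 1 (*Il33*) was at least 2-fold higher and 2 (*Il1rl1* and *Il18*) at least 2-fold lower in *Tsc2*-/- MEFs, with 4 within 2-fold. Over all 12771 genes that passed this filter, 30.4% were past 2-fold, 25.2% higher and 5.18% lower. With 1 library per genotype these differences have no replicate check. Over the 6 genes not chosen for their changes, all of which passed the filter, 1 was higher (*Il33*), 1 lower (*Il18*) and 4 within 2-fold, and the place of *Il1rl1* among the lower genes was set by how the list was made. Scaled to a median ratio of 1, *Il33* was no longer past 2-fold and *Il1r1* was, at a log2 change of -1.07. The epithelial marker list moved with the same contrast, from a summed 0.150 TPM in *Tsc2*+/+ MEFs to 77.7 TPM in *Tsc2*-/- MEFs, through *Krt18* (0 to 20.6 TPM) and *Krt19* (0.0506 to 55.6 TPM) of its 6 genes. The other 4 genes of the list were below 1 TPM in both. In the fibroblast list 3 of 8 genes were at least 2-fold higher in *Tsc2*-/- MEFs (*Dcn*, 7.08 to 422 TPM, *Pdgfra*, 10.8 to 36.1 TPM, and *Thy1*), 1 was lower (*Vim*) and 4 were within 2-fold, with a median log2 change of 0.68. Its sum went from 5346 to 3620 TPM through *Vim*, which went from 3522 to 1118 TPM. Summed over its 10 genes the leukocyte and mast cell list was 1.78 TPM in *Tsc2*+/+ and 10.3 TPM in *Tsc2*-/- MEFs, with 1 and 3 genes of at least 1 TPM. The 3 were all at least 2-fold higher in *Tsc2*-/- MEFs on the log2(TPM + 1) scale, *Kit* (0 to 1.45 TPM, 63 counts), *Csf1r* (0.0162 to 1.77 TPM) and *Cd68* (1.69 to 6.78 TPM). Of the defining genes, *Fcer1a* was at 0 counts in every library, *Cpa3* at most at 1 and *Ptprc* at most at 3.65. The part of these cell-type genes in the MEF differences was not tested.

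The rapamycin comparison set each treated kidney library against the untreated library of its line. *Il1rl1* was 5.62-fold higher in MKOC cells (4.74 to 6.69) and 3.46-fold higher in TJ cells (2.77 to 4.32), with a fitted log2 change of 2.04 (SE 0.23) over both lines. Part of the TJ rise was Il1rl1-204, at 0 TPM without and 1.03 TPM with rapamycin, the latter on 3.55 counts. Without Il1rl1-204, *Il1rl1* went from 2.10 to 6.24 TPM in TJ cells and from 2.47 to 16.2 TPM in MKOC cells. In MKOC cells the short form was 8.07-fold higher (6.37 to 10.3) and the long form 3.53-fold higher (2.73 to 4.60). In TJ cells they were 3.08-fold (2.32 to 4.13) and 2.61-fold (1.83 to 3.78) higher. Both forms were thus higher with rapamycin in both lines, and only in MKOC cells did the intervals of the 2 forms not overlap. *Il13ra2* was 13.7-fold higher in MKOC cells (4.30 to 69.9, 33 counts against 3) and 15.9-fold higher in TJ cells (7.04 to 44.6, 89 counts against 6). Its fitted log2 change was 3.81 (SE 0.44), and limma on log2(TPM + 1) gave 1.27. These 2 genes were chosen for their changes and no p-value is given.

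Of the 6 genes that were not chosen for a change, *Il4ra* rose. It went from 4.80 to 7.63 TPM in MKOC cells (1.59-fold, interval 1.41 to 1.80) and from 3.70 to 6.58 TPM in TJ cells (1.78-fold, 1.55 to 2.04), a log2 change of 0.74 (SE 0.13, edgeR quasi-likelihood test, Benjamini-Hochberg adjusted p = 0.00224). Without the cell line as a block the adjusted p was 0.0695. The other 5 genes did not pass. *Il18* was 6.16-fold higher in MKOC cells (2.30 to 20.7) and 1.29-fold higher in TJ cells (0.760 to 2.22), with a log2 change of 1.16 (SE 0.51, edgeR adjusted p = 0.102). *Il33*, from 6 to 13 counts in MKOC and 27 to 39 in TJ cells, had 0.82 (SE 0.42, adjusted p = 0.157), *Il1rap* 0.29 (SE 0.13, adjusted p = 0.114) and *Il1r1* 0.37 (SE 0.31, adjusted p = 0.384). *Il13ra1* was 0.870-fold in MKOC (0.785 to 0.965) and 1.05-fold in TJ cells (0.970 to 1.14), with -0.068 (SE 0.12, adjusted p = 0.691). The 1 gene of 6 that passed stands beside 34.9% of all 12952 genes tested that passed in either direction, 17.5% higher and 17.4% lower, a share of the set that was no higher than that of genes at large.

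Some cell-type markers passed the rapamycin test as well, and their counts stand beside 17.5% of all genes tested higher and 17.4% lower. In the epithelial list 3 of 4 genes tested rose, and its sum went from 952 to 1492 TPM in MKOC and from 968 to 1636 TPM in TJ cells, through *Krt8* (log2 change 0.79, edgeR adjusted p = 4.26e-04) and *Krt18* (0.78, adjusted p = 4.246e-04). In the fibroblast list 3 of 7 rose, and its sum went from 4702 to 7574 TPM and from 3617 to 5305 TPM, through *Vim* (0.66, adjusted p = 0.0028) and with *Dcn* (0.82, adjusted p = 0.0014). In the leukocyte and mast cell list *Csf1r* rose, 1 of 3 tested (0.45, adjusted p = 0.0179), and the sum went from 22.8 to 25.8 TPM and from 34.6 to 36.8 TPM. Of 4 tubule genes tested *Cdh16* rose (0.37, adjusted p = 0.0226), and neither of the 2 endothelial genes tested passed. The part of these lists in the changes of the 8 genes was not tested.

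**Figure D4:**
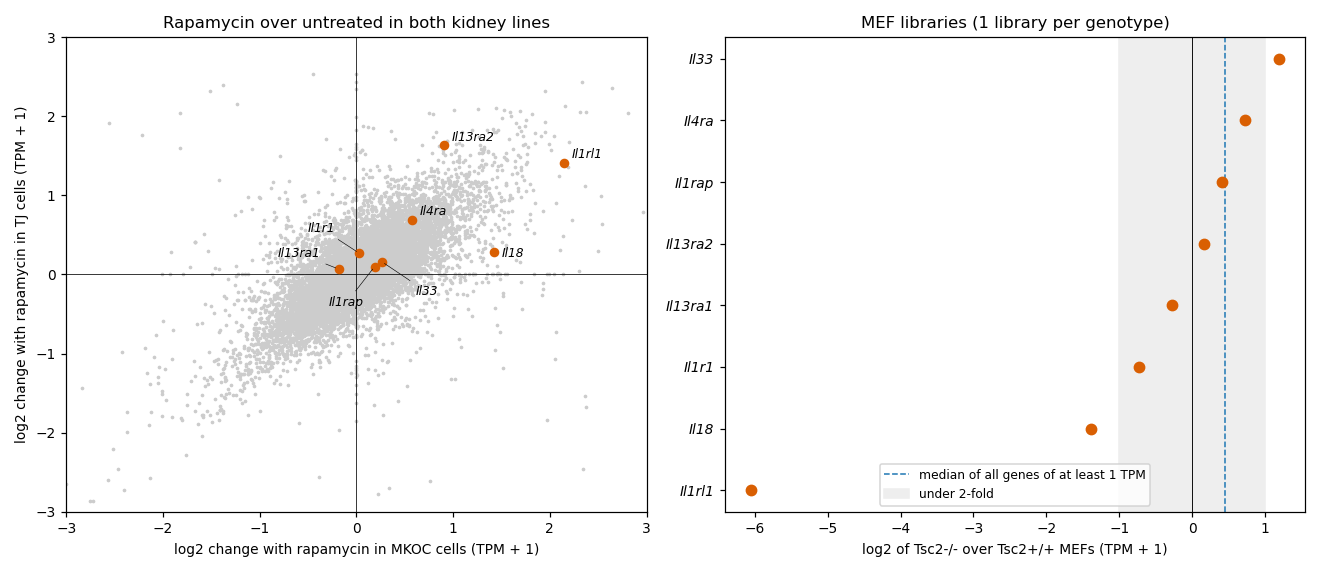
Left, log2 change of TPM + 1 with rapamycin in MKOC cells against that in TJ cells for 13913 genes (grey) and the 8 genes (orange), with 21 genes outside the axes. Right, log2 change of TPM + 1 in Tsc2-/- over Tsc2+/+ MEFs, where Il1rl1 is at -6.05, the dashed line is the median gene at 0.45 and the grey band is under 2-fold.

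The 4 kidney libraries also compared the tumor-derived TJ line with MKOC cells, with treatment as a covariate. *Il1r1* was higher in TJ cells, 3.69-fold (2.39 to 5.86) without and 4.75-fold (3.03 to 7.75) with rapamycin, with a log2 difference of 2.03 (SE 0.31, edgeR adjusted p = 0.0036). *Il33* was 5.65-fold (2.29 to 16.7) and 2.60-fold (1.36 to 5.31) higher, with 1.73 (SE 0.43, adjusted p = 0.0352). *Il13ra1* was 1.40-fold and 1.69-fold higher, with 0.60 (SE 0.12, adjusted p = 0.0137). *Il1rap* was lower in TJ cells, with -0.54 (SE 0.13, adjusted p = 0.0319). With DESeq2 the line test lost *Il33* (adjusted p = 0.378) and *Il1rap* (0.151). With limma on log2(TPM + 1) it also lost *Il13ra1* (adjusted p = 0.074) and kept *Il1r1* alone of the 4. Without the treatment term the edgeR adjusted p of the 4 genes was 0.487 (*Il1r1*) to 0.971 (*Il1rap*).

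*Il18* was 6.0-fold higher in TJ cells without rapamycin (2.28 to 19.95, 27 counts against 5) and 1.26-fold with it (0.729 to 2.21, 35 counts against 24). Its fitted log2 difference over both treatments was 1.13 (SE 0.51, adjusted p = 0.221), against 2.48 in the untreated and 0.32 in the rapamycin-treated libraries alone, and it did not pass. *Il4ra* had -0.31 (SE 0.13, adjusted p = 0.194) and did not pass either. Of the 6 genes not chosen for their changes, 4 thus passed, 3 higher and 1 lower in TJ cells, and 8.79% of the 12952 genes tested passed, 5.47% higher and 3.32% lower. The fitted log2 difference was -1.05 (SE 0.23) for *Il1rl1* and 1.18 (SE 0.40) for *Il13ra2*. *Il1rl1* was 1.37-fold lower in TJ cells without rapamycin (1.07 to 1.75) and 2.23-fold lower with it (1.95 to 2.55), and the intervals did not overlap. Each line is 1 line, so a difference between lines cannot be told apart from one between these cultures. Markers of other cell types differed between the lines too, in 1 of 7 fibroblast genes tested higher (*Pdgfrb*, 2.63, adjusted p = 0.0183) and 1 lower in TJ cells (*Dcn*, -2.12, adjusted p = 2.9e-05). Of 3 leukocyte and mast cell genes tested *Csf1r* was higher (0.94, adjusted p = 0.0016) and *Ms4a2* lower (-1.32, adjusted p = 0.0375), and of 2 endothelial genes tested *Cdh5* was lower (-1.57, adjusted p = 0.0021). Of 4 tubule genes tested *Cdh16* was higher (0.47, adjusted p = 0.0253), and none of the 4 epithelial genes tested passed. Their part in the line differences was not tested.

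*Il1rl1* sits between *Il1rl2*, a receptor of the IL-36 cytokines, and *Il18r1* and *Il18rap*, the chains of the IL-18 receptor. *Il18r1* begins 137 bases after the end of *Il1rl1* on the same strand, so reads near the boundary could be shared. It was at 0.262 and 0 TPM in *Tsc2*+/+ and *Tsc2*-/- MEFs, 5.66 and 21.5 TPM in MKOC cells (untreated, then rapamycin) and 6.94 and 15.4 TPM in TJ cells. *Il18r1* rose with rapamycin (log2 change 1.71, SE 0.20, edgeR adjusted p = 1.9e-04). *Il18r1* RNA was thus found mainly in the kidney cells, and was low in the *Tsc2*+/+ MEF library in which *Il1rl1* was at 375 TPM.

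*Il18rap* was at 4.66 and 0.397 TPM in *Tsc2*+/+ and *Tsc2*-/- MEFs, 0.311 and 1.29 TPM in MKOC cells and 0.324 and 0.702 TPM in TJ cells. It rose with rapamycin (1.96, SE 0.37, adjusted p = 0.0027), and, like *Il1rl1*, had its highest level in *Tsc2*+/+ MEFs. *Il1rl2* was at 4.69 TPM (209 counts) in *Tsc2*-/- MEFs and at most 1 count in the other libraries. *Slc9a4* and *Slc9a2*, sodium-proton exchangers further along, were below 1 TPM in every library.

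**Figure D5:**
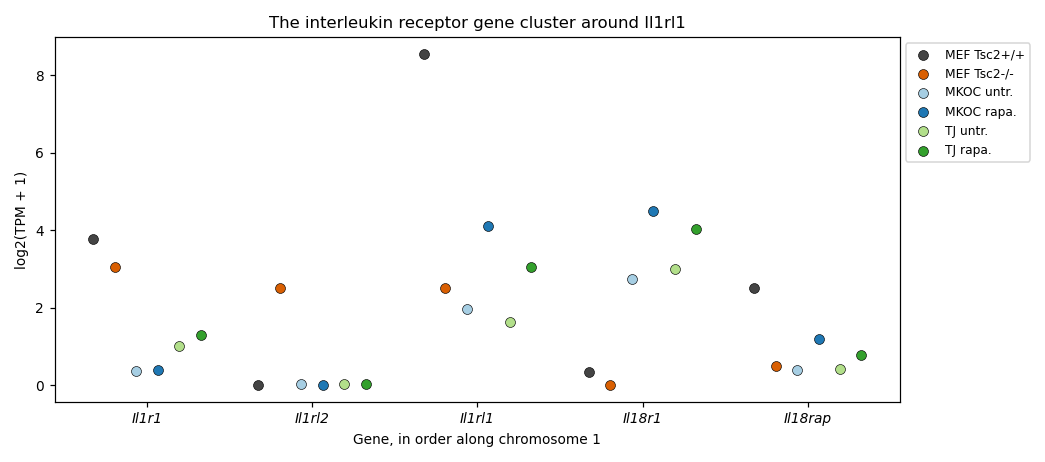
Level, as log2(TPM + 1), of the 5 interleukin receptor genes in their order along chromosome 1, 1 point per library. Il1rl1 is highest in Tsc2+/+ MEFs, Il1rl2 is above 1 TPM only in Tsc2-/- MEFs, and Il18r1 is seen mainly in kidney cells, higher with rapamycin.

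The wider pathway was described with 88 further genes in 8 lists, of which 62 reached 1 TPM in at least 1 library. Of 60 genes tested with rapamycin, 24 rose, 3 fell and 33 did not pass, with a median log2 change of 0.28 beside 0.02 over all genes tested. Of all genes tested 17.5% rose and 17.4% fell, and the counts of each list below stand beside those shares. In the NF-kB list, 9 of 14 genes rose and 1 fell, with a median log2 change of 0.64. Those that rose included *Tnfaip3*, the A20 deubiquitinase that restrains NF-kB (7.67 to 24.3 TPM in MKOC and 12.6 to 28.6 TPM in TJ cells, log2 change 1.42, adjusted p = 5.9e-05), and *Nfkbia*, the inhibitor IkBa (0.82, adjusted p = 6.1e-04). *Chuk*, a kinase of the pathway, fell (log2 change -0.33, adjusted p = 0.028). In the list of IL-4 and IL-13 signalling, 7 of 11 genes rose and 1 fell, among them *Irs2*, an adaptor of the IL-4 receptor (6.31 to 16.4 TPM in MKOC and 5.73 to 11.9 TPM in TJ cells, 1.21, adjusted p = 1.4e-04), and *Stat6* (0.40, adjusted p = 0.0158), while *Jak1* fell (-0.38, adjusted p = 0.0111). The median of that list was 0.63. In the MyD88 list 1 of 11 rose and 10 did not pass, with a median of -0.14.

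Among the ligands and their inhibitors, *Il1rn*, the IL-1 receptor antagonist, was at 14.2 TPM in the *Tsc2*+/+ MEF library and at 337 TPM in the *Tsc2*-/- library, a log2(TPM + 1) change of 4.47. In the kidney lines it fell with rapamycin, from 55.7 to 20.8 TPM in MKOC and from 56.6 to 16.4 TPM in TJ cells (log2 change -1.56, SE 0.13, edgeR adjusted p = 3.3e-05). Of the 5 genes of its list tested, it was the 1 that passed. *Tslp*, an epithelial cytokine, rose with rapamycin (5.55 to 10.2 TPM in MKOC and 1.69 to 5.69 TPM in TJ cells, 1.24, adjusted p = 0.0085), as did *Il5ra*, the IL-5 receptor chain (1.38, adjusted p = 5.5e-04). *Il13* had no value above 0.0626 TPM (1 count), and *Il4* was at 1.25 to 3.95 TPM on only 7 to 23 counts per library. *Il1f6*, the IL-36 alpha gene, was at 0.0711 and 0.548 TPM in MKOC cells and 11.9 and 18.7 TPM in TJ cells (log2 difference between lines 5.58, adjusted p = 7.0e-05), and at 0 in the MEFs.

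In the MEFs, 55 of the 88 genes passed the filter, of which 9 were at least 2-fold higher and 5 at least 2-fold lower in *Tsc2*-/- cells, with a median log2 change of 0.44 beside 0.45 over all genes. Over all genes 25.2% were that much higher and 5.18% lower. Those higher were *Il1rn*, *Il1rl2* (2.50), *Crlf2* (the TSLP receptor, 2.51), *Irak2* (2.28), *Irs1* (1.94), *Gsdmd* (the pore-forming gasdermin D, 1.65), *Stat3* (1.39), *Irs2* (1.30) and *Nfkbib* (1.05). Those lower were *Postn* (periostin, a matrix protein that IL-13 induces, -3.07), *Il18rap* (-2.02), *Casp1* (the protease that matures IL-18, -1.69), *Sigirr* (an inhibitory IL-1 receptor relative, -1.19) and *Fn1* (fibronectin, -1.09). The IL-13 response list had 2 of its 12 genes lower, with 9 below 1 TPM in all libraries.

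The genes most like *Il1rl1* across the 6 libraries were ranked by Pearson's r of log2(TPM + 1) among 1768 genes that reached 10 TPM and varied, and r is given as a description over 6 points of which the *Tsc2*+/+ MEF library is set far apart. They were *Tgtp1*, an interferon-induced GTPase (r = 0.998), *Apol10b* (0.996), *Cyp2c55* (0.968), *Slfn8* (0.965) and *Phf11d* (0.963). *Tgtp1* was at 17.0 TPM in *Tsc2*+/+ MEFs against 1.33 TPM in *Tsc2*-/- MEFs, 0.651 and 3.02 TPM in MKOC cells (untreated, then rapamycin) and 0.524 and 1.42 TPM in TJ cells. *Slfn8* was at 41.0 and 3.98 TPM in the MEFs, 4.97 and 7.72 TPM in MKOC cells and 4.76 and 4.18 TPM in TJ cells. Since these genes were picked for their likeness over the same libraries, their values are no further evidence, and all 5 reached 10 TPM only in *Tsc2*+/+ MEFs. For *Il13ra2*, among 1769 genes, no r exceeded 0.95 and the highest were *Wbscr27* (0.905), *Cp*, which encodes ceruloplasmin (0.889), *Pdcd4*, a translation inhibitor (0.864), *Ecel1* (0.818) and *Crebrf* (0.776). *Wbscr27* was at 4.25 and 31.9 TPM in MKOC cells and 5.82 and 34.0 TPM in TJ cells, and *Cp* was at 41.0 and 137 TPM and at 89.7 and 304 TPM. *Ecel1* was at 0.449 and 0.135 TPM in MKOC cells and 0.330 and 10.2 TPM in TJ cells, and reached 10 TPM in that last library alone. These values chose the genes and are a description only.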

How the data were processed

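RNA was measured in 6 libraries (poly(A)-selected, stranded kit, 100 base paired-end reads). The authors trimmed reads with Trimmomatic 0.32 and ran Kallisto (version not given in the sources used here). The deposited tables hold estimated counts and TPM for 88198 transcripts. The methods name a human reference, but the identifiers are those of mouse transcripts. Strand use in counting was not given in the sources used here. The deposited fold change ratio per transcript was used for its gene symbols only. Transcripts without a symbol (1006, 0.372 to 0.468% of counts) were left out.

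Values were summed per symbol. For the MEFs, fold changes used log2(TPM + 1), a filter of 1 TPM in either library and a 2-fold threshold, without a test. For the kidney libraries, rounded counts passed filterByExpr and TMM scaling, and a quasi-likelihood model of line and treatment was fitted in edgeR (1 residual degree of freedom, with the spread moderated across genes, adjusted p of 0.05). The labels name the line of each library, and the deviations of paired libraries from their treatment means correlated at 0.562. Ratios carry exact binomial intervals and levels Wilson intervals at 95%, with a floor of 3 counts. Transcript positions are from GENCODE M21 and promoters from RefSeq.

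The 8 genes were described in full, with all *Il1rl1* transcripts. From 8 pathway lists the text names genes that changed 2-fold in the MEFs or with rapamycin, and the 5 genes closest in pattern. *Il1f6*, the marker genes picked out from their lists, *Nfkbia*, *Chuk*, *Stat6*, *Jak1*, *Il4*, *Il13* and *Slc9a2* and *Slc9a4* were added after their values were seen. *Il1rl1* and *Il13ra2* were left out of the counts of genes that passed a test. The genes and lists were chosen with earlier results of these data known. The alternatives were pseudocounts of 0.1, 0.5 and 5, scaling to a median ratio of 1, CPM, no filter, single transcripts, upper-quartile normalization, DESeq2, limma, no block, no treatment term and single lines or treatments. Tools were edgeR 4.0.16, DESeq2 1.42.0 and limma 3.58.1 in R 4.3.3, with Python 3.11.15.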

Additional observations from a re-analysis of the deposited data

Results flagged for a closer look

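The log2 change of *Il13ra1*, the signalling chain of the IL-13 receptor, with rapamycin had opposite signs in the kidney lines, and the change over both lines did not pass (edgeR adjusted p = 0.691). Its log2(TPM + 1) change was -0.19 in MKOC cells (12.97 to 11.3 TPM) and 0.069 in TJ cells (18.1 to 19.0 TPM). Each line has 1 library per treatment, and the difference between the lines was not tested. The count interval of the TPM ratio excluded 1 in MKOC cells (0.785 to 0.965) and included it in TJ cells (0.970 to 1.14).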

How the results depend on the processing

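The log2 change of *Il1rl1* in the MEFs kept its direction in every alternative run. It was -5.30 with a pseudocount of 5, -6.36 scaled to a median ratio of 1, -7.28 with CPM in place of TPM, -7.13 for the transcript with the highest TPM alone and -6.94 without Il1rl1-204, an alternative chosen after seeing the data. The pseudocount of 5 left 1 of the 3 genes past 2-fold, *Il1rl1*, and so 0 of the 6 genes not chosen for their changes. Without the replicate block, 1275 genes in place of 4526 passed with rapamycin (3878 had an unadjusted p under 0.05) and 0 of the 6 genes tested passed by edgeR, with *Il4ra* at an adjusted p of 0.0695. With limma 2 passed, *Il4ra* and *Il18* (adjusted p = 0.0473), and with DESeq2 *Il4ra* passed. Between lines, 1139 genes passed in the reported fit, 1753 with no filter, 615 with DESeq2, 605 with limma and 0 without the treatment term, where 702 had an unadjusted p under 0.05. Of the 6 genes not chosen for their changes, 4 passed between lines in the reported fit, 2 with DESeq2, 1 with limma and 0 without the treatment term. The share of higher calls with rapamycin was 50.1%, and 43.8 to 55.3% in the alternatives. The log2 change of *Il13ra1* with rapamycin was -0.17 without the TJ and 0.11 without the MKOC libraries. Single lines gave values with no test: *Il18* had 2.55 in MKOC and 0.39 in TJ cells, *Il33* 1.45 and 0.55, and *Il1rl1* 2.57 and 1.49. The cause of these shifts was not tested. The replicate block, which pairs the libraries of a line, changed no other call among the 6 genes. Low counts limit *Il33*, *Il18* in MKOC cells and *Il13ra2* in untreated cells.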

Other observations

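Kallisto divided the counts of *Il33* and *Il13ra2* over transcripts of which 1 has few or no bases of its own, so these splits are given as estimates from which no shift can be read. Il33-201 and Il33-202 encode the same 266 codons and have only 69 and 15 bases in no other *Il33* transcript. Il33-201 had all 48 counts in *Tsc2*-/- MEFs, all 13 in MKOC cells with rapamycin and 38.9 of 39 in TJ cells with rapamycin, while Il33-202 had 26.0 of the 27 counts in untreated TJ cells and 5.82 of the 6 in untreated MKOC cells.

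Il13ra2-201, whose start is that of the promoter shown, and Il13ra2-202, which starts 25360 bases downstream, both have 383 coding codons. In the MEFs Il13ra2-202 had 15.4 of 21 counts in the *Tsc2*+/+ library and 9.36 of 15 in the *Tsc2*-/- library. In rapamycin-treated kidney cells Il13ra2-201 had all 33 counts in MKOC and 70.3 of 89 in TJ cells. Il13ra2-202 has no base of its own among the deposited transcripts.

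The mast cell gene *Ms4a2* was at 1.26 to 4.08 TPM in the kidney libraries and at 0 in the MEFs, and the macrophage gene *Csf1r* was at 11.3 to 30.3 TPM in the kidney libraries, while *Fcer1a* had 0 counts there and *Ptprc* at most 3. The source of these reads was not tested.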
